A study of Mus musculus with 3 samples.

Results

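The Kit locus was described from 2 lists of histone-marked regions, 1 for H3K27ac and 1 for H3K4me1. It was taken as the mm9 interval chr5:75840000-76070000, which spans 230 kb and holds Kit, on the plus strand at about 75970000 to 76050000, with its upstream enhancers. All regions that overlapped this interval were kept, which gave 47 of 93413 H3K27ac regions and 43 of 155027 H3K4me1 regions. Chromatin immunoprecipitation sequencing had been done on bone marrow hematopoietic stem cells of C57BL/6 mice aged 24 months, sorted as SP-KSL-CD150+ cells. No genetic change or treatment is given for these cells, and no younger group was analysed here. Per the labels, the single library of each mark is a technical replicate from biological replicate 1. Differences are therefore described without a test, and replicate error is unknown. An input library belongs to the same experiment and was not analysed here.

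Kit encodes the receptor tyrosine kinase c-Kit, whose ligand is stem cell factor and which blood stem cells need for their maintenance. In blood progenitors the gene is controlled by distal enhancers upstream of it and by elements inside it, which are known to be bound by GATA and TAL1 factors. H3K27ac marks active promoters and enhancers. H3K4me1 marks enhancers whether or not they are active and is usually low at the start site of an active gene. The K of the KSL gate stands for c-Kit, so the cells were selected by the protein of this gene, and the presence of active marks at Kit is not an independent result. No mm9 annotation was used here. Exons and introns are therefore not assigned, and positions are given in kb from 75970000, the gene start rounded to 10 kb, with negative values upstream.

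The bases before the gene start are shown because 3 H3K27ac regions lay within 3 kb of the rounded start. They are the 250 bases before the RefSeq start on GRCm38.p6, plus strand, 5′ to 3′, with the only match to a searched motif in capitals, a GC box (GGGCGG).
Kit promoter: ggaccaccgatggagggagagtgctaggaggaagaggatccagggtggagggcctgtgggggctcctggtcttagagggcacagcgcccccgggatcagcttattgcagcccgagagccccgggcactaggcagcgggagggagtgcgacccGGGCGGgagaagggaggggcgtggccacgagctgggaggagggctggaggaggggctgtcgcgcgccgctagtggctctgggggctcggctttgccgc
The first base of the GC box lies at -98 from the start. The 300-base RefSeq window, which also covers 50 bases after the start, was searched on both strands for 7 motifs. GGGCGG occurred once there, and 35.7% of 32851 mouse promoter windows of this length hold it. The E-box CANNTG occurred once, after the start and outside the printed bases, and 72.3% of windows hold it. The letters of the other 5 motifs were not in this window. The GATA motif AGATAA is held by 11.2% of windows and its variant TGATAA by 9.05%. The ETS motif GGAAGT is held by 23.8%, the RUNX motif TGTGGT by 16.8% and the motif CCAAT by 37.4%. The Kit window was 69.0% G and C, against a median of 52.7%. This sequence is on another build than the regions, so it was not placed on them.

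Both marks were concentrated in the gene. The 80 kb of the Kit gene held 34 of the 47 H3K27ac regions, and H3K27ac covered 29.7% of it. In the 130 kb upstream H3K27ac formed 10 regions that covered 2.74%, and in the 20 kb downstream 3 regions that covered 6.48%. H3K4me1 covered 57.2% of the gene (19 regions), 12.3% of the upstream part (16 regions) and 23.7% of the downstream part (8 regions). In the whole window H3K27ac covered 28.6 kb, or 12.4%, and H3K4me1 covered 66.4 kb, or 28.9%. The stretches with both marks summed to 22.9 kb, so that 80.1% of the H3K27ac length and 34.5% of the H3K4me1 length at Kit was shared. Over the whole lists these shares were 65.9% and 21.2%. The higher shares at Kit came from the gene, where they were 84.1% and 43.7%. Upstream they were 63.4% and 14.2% and downstream 53.2% and 14.5%, below those of the lists. Of the 22.9 kb with both marks, 14.0 kb lay in 1 wide H3K4me1 region of the gene.

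**Figure D1:**
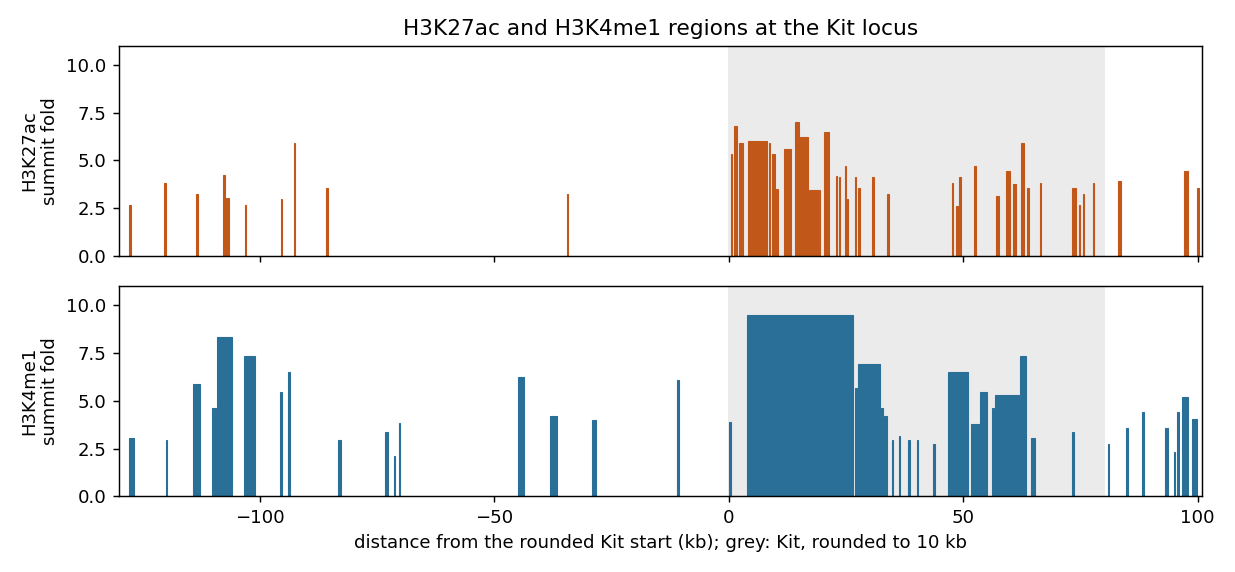
Regions of H3K27ac (top) and H3K4me1 (bottom) at the Kit locus, by distance from the rounded gene start in kb. Each bar spans 1 region and its height is the fold of that region's summit, drawn over the whole width. The 22.6 kb H3K4me1 region stands in the first part of the gene, and H3K27ac bars are sparse from -85.4 to 0.589 kb.

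The fold of a region is the authors' own value, the summit over the local background, and is comparable only within a list. The number of reads at a summit was solved from the fold and its p-value and gives the depth. H3K27ac summits at Kit held 8 to 26 reads with a median of 13, and those of the whole list had a median of 13. H3K4me1 summits at Kit held 10 to 44 reads with a median of 20, equal to the median of the whole list. Away from raised places, the background was 2.38 reads in the H3K27ac library and 3.75 in the H3K4me1 library. No H3K27ac summit of the list held fewer than 8 reads, so weaker acetylation was not detectable at this depth.

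**Figure D2:**
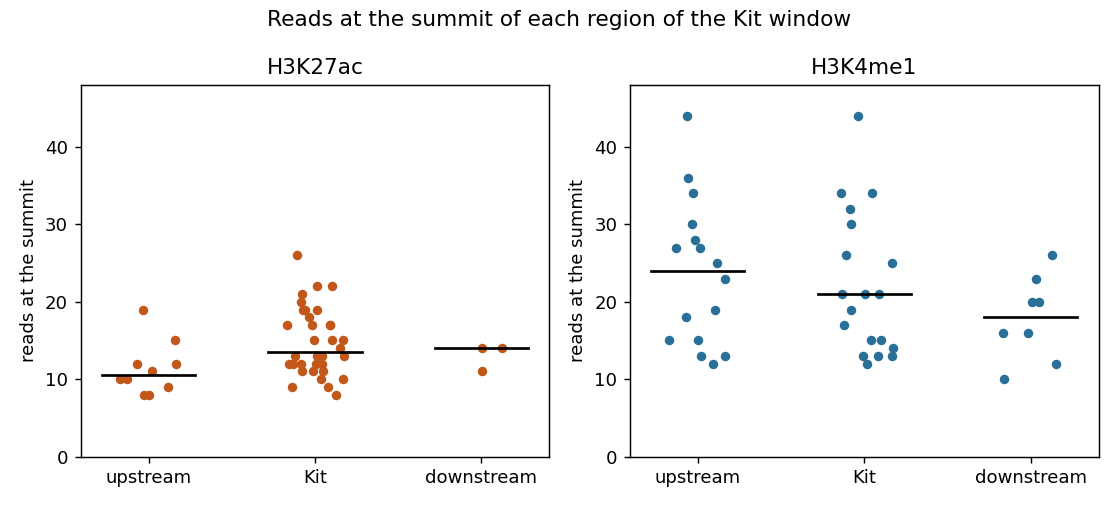
Reads at the summit of each H3K27ac region (left) and H3K4me1 region (right) of the Kit window, by place along the locus. Each point is 1 region and each line the median, which was 10.5, 13.5 and 14 reads for H3K27ac and 24, 21 and 18 reads for H3K4me1. Points are spread sideways only for legibility.

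Near the rounded gene start, H3K27ac occupied a stretch that H3K4me1 left free. The start is rounded to 10 kb, so whether the stretch lies over the true start is not known here. H3K4me1 was absent from 75970436 to 75973828, a stretch of 3.39 kb, and 3 H3K27ac regions covered 51.8% of it without touching H3K4me1. The first, from 75970590 to 75970816, had a summit of 5.32-fold (17 reads) at 0.714 kb. The second, from 75971088 to 75971873, reached 6.80-fold (22 reads) at 1.35 kb and was the second strongest H3K27ac summit of the window. The third, from 75972239 to 75972981, reached 5.91-fold (19 reads) at 2.34 kb. Their read numbers lie close together and above the window's median of 13. Before the gap lay an H3K4me1 region of 357 bp at 0.307 kb with 3.87-fold (21 reads), where the local background was 1.25 times the library's. After the gap H3K4me1 began at 3.83 kb and continued without a break to 26.4 kb. In a gap of 3.39 kb, none of the 3 acetylated summits could have H3K4me1 at 1 kb on both sides.

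**Figure D3:**
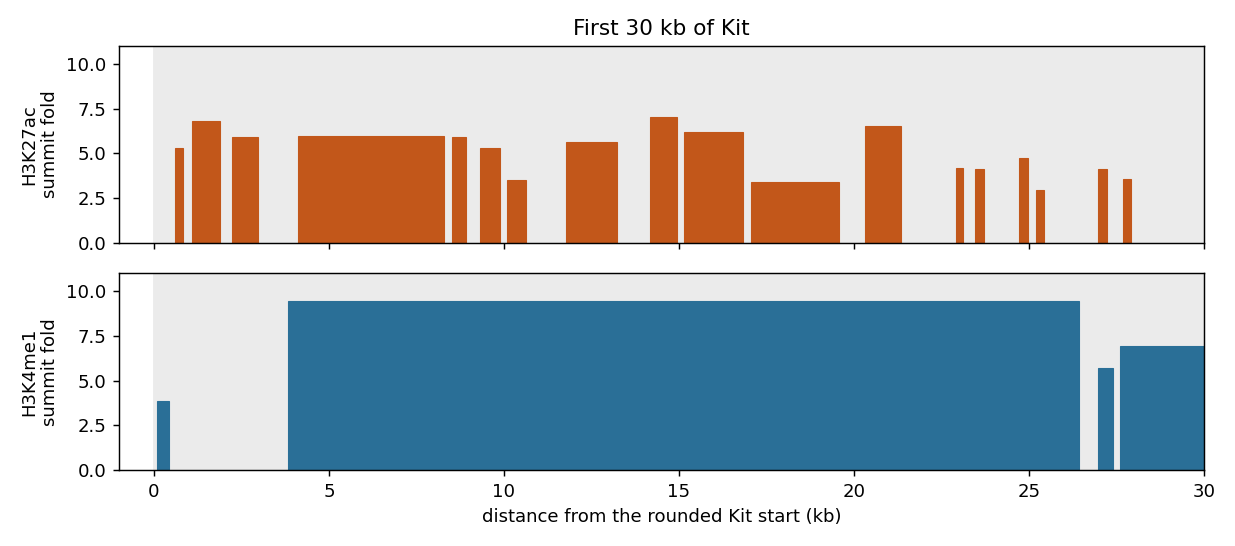
The first 30 kb of Kit, with H3K27ac on top and H3K4me1 below. The x axis is the distance from the rounded gene start in kb and the bar height is the summit fold of each region. The 3 H3K27ac regions before 3 kb lie in the stretch of 3.39 kb without H3K4me1, and the next 13 lie inside the 22.6 kb H3K4me1 region.

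The widest H3K4me1 region of the locus filled the beginning of the gene. It ran from 75973829 to 75996441, was 22.6 kb wide and ranked 27th by width among the 155027 H3K4me1 regions. It alone made up 34.0% of the H3K4me1 length of the window. Its summit, at 17.6 kb, was 9.48-fold (44 reads), the highest fold of H3K4me1 in the window, and 1.94% of all H3K4me1 regions had a fold as high.

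This single H3K4me1 region enclosed 13 separate H3K27ac regions. They covered 14.0 kb, or 61.8% of it, and made up 48.8% of the acetylated length of the window. Their folds ran from 2.95 to 7.04 with a median of 5.32. The strongest H3K27ac summit of the locus was among them, at 14.8 kb, from 75984162 to 75984933, with 7.04-fold (26 reads). The next in fold here were at 21.0 kb with 6.50-fold (21 reads), at 16.7 kb with 6.21-fold (20 reads), at 5.67 kb with 5.99-fold (22 reads), at 8.70 kb with 5.91-fold (19 reads) and at 12.4 kb with 5.61-fold (18 reads). Those counts differ by a few reads and no order among them is read from 1 library. The region with its summit at 5.67 kb, from 75974125 to 75978273, was 4.15 kb wide and the widest H3K27ac region of the locus. The region from 75987064 to 75989558 was 2.50 kb wide but only 3.43-fold. Its summit held 17 reads over a local background 1.78 times the library's, the highest ratio at Kit.

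H3K27ac covered 61.8% of the wide H3K4me1 region of Kit, more than of most H3K4me1 regions of 10 kb or more. Most of these are narrower than the Kit region, which ranked 27th by width, and regions of like width were not compared. Of the 458 regions, the Kit region ranked 102nd by acetylated share, against a median of 45.7% (quartiles 30.5 and 59.4%). The median number of H3K27ac regions in them was 7, against 13 in Kit, and 25 of the 458 had more than Kit, although a wider region can hold more of them. In 455 others with an acetylation summit inside, the highest H3K27ac summit had a median of 7.39-fold (quartiles 5.91 and 9.46), against 7.04-fold in Kit. These comparisons were chosen after the values of Kit had been seen.

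The remaining gene held a second cluster from 47.7 kb on, and weak H3K4me1 between the clusters. No H3K27ac was found from 34.2 to 47.7 kb, where H3K4me1 formed 5 summits of 2.74-fold to 3.16-fold. The strongest acetylation of the second cluster lay at 63.0 kb, from 76032298 to 76033031, with 5.91-fold (19 reads). An H3K4me1 summit of 7.37-fold (34 reads) lay 50 bp from it. The wide H3K4me1 regions of this part were 5.08 kb with its summit at 58.5 kb (5.28-fold), 4.59 kb at 29.3 kb (6.95-fold) and 4.28 kb at 49.9 kb (6.53-fold). They met 3, 2 and 3 H3K27ac regions. H3K4me1 regions of 1.71 kb at 53.1 kb and of 1.54 kb at 54.0 kb lay between them, and the latter (5.48-fold, 25 reads) met no H3K27ac. Nor did the regions at 32.6 and 56.4 kb, of 4.63-fold (21 reads) each. Toward the gene's end the order was turned, since H3K27ac covered 15.0% and H3K4me1 3.63% of the last 10 kb. This rests on weak regions, 4 H3K27ac summits of 8 to 12 reads and 1 H3K4me1 summit of 15 reads. All had a −log10 q under 5.

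**Figure D4:**
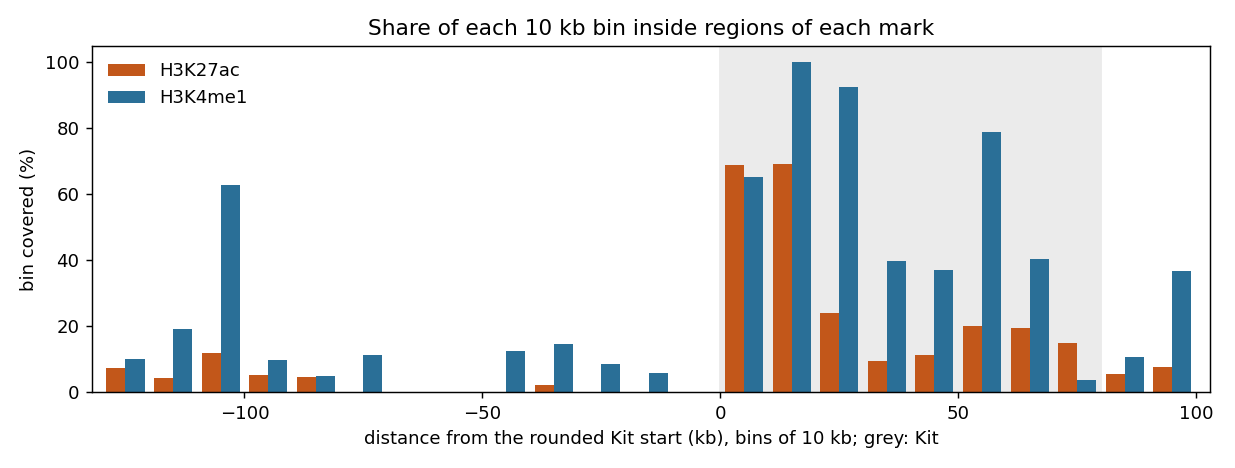
Share of each 10 kb bin covered by H3K27ac and by H3K4me1, by distance from the rounded gene start in kb. H3K27ac exceeded 25% in 2 of 23 bins, at 68.9% and 69.2% in the first 20 kb of Kit, whereas H3K4me1 did so in 9 bins and filled 100% of the bin from 10 to 20 kb.

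Upstream of Kit, single H3K4me1 summits were high while most H3K27ac summits were low. The 16 H3K4me1 regions had a median of 4.41-fold (24 reads), against 4.12-fold (20 reads) in the whole list, and ran from 2.13-fold to 8.32-fold. The 10 H3K27ac regions had a median of 3.25-fold (10.5 reads), against 3.86-fold (13 reads) in the list. The far cluster, from -127.9 to -85.4 kb, held 9 H3K27ac regions over 3.36 kb of its 42.5 kb. Its H3K4me1 summit at -107.7 kb, from 75860870 to 75864189, was 8.32-fold with 44 reads, the second highest fold of H3K4me1 in the window. The H3K27ac summit 51 bp from it was 4.21-fold with 15 reads. At -102.9 kb an H3K4me1 region of 2.32 kb reached 7.37-fold (34 reads), while the H3K27ac summit 134 bp away was 2.66-fold with 8 reads, the lowest number at Kit, shared with 2 other summits. At -113.6 kb an H3K4me1 region of 1.54 kb was 5.90-fold (27 reads) and met H3K27ac of 3.25-fold (10 reads). These 3 sites were named for the fold or width of their H3K4me1, which stood above its list's median of 20 reads. Of the 3 H3K27ac summits 2 stood below their list's median of 13. The other H3K4me1 regions of this cluster that met H3K27ac were not all high. They held 15 reads at -127.7 kb, 13 at -119.9 kb and 25 at -95.3 kb. The H3K27ac summits there held 8, 12 and 9 reads. The strongest upstream acetylation lay apart from all these sites, at -92.6 kb from 75877315 to 75877612, with 5.91-fold (19 reads) and no H3K4me1. An H3K4me1 summit of 6.53-fold (30 reads) without H3K27ac lay 1040 bp from it, at -93.6 kb.

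Nearer to the gene, H3K27ac was almost missing. From -85.4 to 0.589 kb it formed 1 region, at -34.4 kb, with 3.25-fold (10 reads) and no H3K4me1. H3K4me1 formed 9 summits in the 2 stretches on either side of that region, all without H3K27ac. They included summits of 6.25-fold (36 reads) at -44.7 kb and of 6.11-fold (28 reads) at -10.7 kb. The former had a local background 1.31 times the library's and the latter one equal to it. A region of 1.45 kb at -37.8 kb was 4.21-fold (19 reads). Neither mark was called from 75900020 to 75925029, which is 25.01 kb, nor over 17.2 kb and 10.6 kb on either side of the region at -10.7 kb.

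Downstream of the gene both marks covered less of the sequence than in the gene, with summits of ordinary height. The 3 H3K27ac summits had a median of 3.91-fold (14 reads) and the 8 H3K4me1 summits one of 3.82-fold (18 reads). The strongest region of both marks lay at 97 kb, where an H3K27ac summit of 4.43-fold (14 reads) and an H3K4me1 summit of 5.18-fold (26 reads) were 75 bp apart. The other H3K27ac regions there were 3.91-fold (14 reads) at 83.2 kb and 3.55-fold (11 reads) at 100.1 kb, both without H3K4me1. The latter crosses the window's end by 0.211 kb. The next H3K27ac region outside began 0.797 kb after the window and was 3.25-fold. The first H3K27ac region inside the upstream edge and the last outside it were both 2.66-fold. For H3K4me1 the regions just inside the edges were 3.07-fold and 4.05-fold and those just outside 4.98-fold and 12.8-fold.

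The shares of regions with both marks at Kit were close to those of the whole lists. Of the 47 H3K27ac regions 34 (72.3%, exact Clopper-Pearson 95% interval 57.4 to 84.4%) shared at least 1 bp with H3K4me1, against 71.7% of the whole list. Of the 43 H3K4me1 regions 16 (37.2%, interval 23.0 to 53.3%) met H3K27ac, against 33.6% of the list. Acetylation summits lay inside H3K4me1 in 32 of 47 cases (68.1%, interval 52.9 to 80.9%), against 58.2%, a share inside that interval. H3K4me1 lay at 1 kb on both sides of 25 summits (53.2%, interval 38.1 to 67.9%), against 29.3%, and 13 of the H3K27ac regions sat in 1 wide H3K4me1 region. A summit outside H3K4me1 with H3K4me1 at 1 kb on both sides, was found in 2 of 47 cases against 5.85% of the list. Those 2 were weak summits at 33.9 and 63.9 kb. Intervals cover counting error only and treat regions as independent. Neighbouring regions are not, so the intervals may be too narrow.

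H3K27ac regions with and without H3K4me1 overlapped in fold at Kit. The 34 regions with H3K4me1 had a median of 4.14-fold (range 2.61 to 7.04) and the 13 without it a median of 3.84-fold (range 2.66 to 6.80). After the 3 regions near the rounded gene start and the one at -92.6 kb, the strongest of the 13 was that at 83.2 kb. The 16 H3K4me1 regions with H3K27ac had a median of 5.58-fold and the 27 without it 3.82-fold, and the ranges overlapped as well (2.95 to 9.48 and 2.13 to 6.53). The whole lists show the same order, with medians of 4.37-fold with and 3.50-fold without the other mark for H3K27ac and of 5.69-fold and 3.58-fold for H3K4me1. A raised local background, over 1.05 times the library's, was found at 11 of the 47 H3K27ac summits against 26.2% of the list, and at 11 of the 43 H3K4me1 summits against 36.8%.

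The typical fold of H3K27ac at Kit was that of the whole list, and no summit reached 10-fold. The median was 3.84-fold (quartiles 3.34 and 5.02) at Kit and 3.86-fold (quartiles 3.25 and 5.32) in the list. None of the 47 H3K27ac regions reached 10-fold (upper limit of the interval 7.55%), against 7.77% of the list. Summits of 6-fold or more numbered 4 (8.51%, interval 2.37 to 20.4%), against 18.7%, and summits of 5-fold or more 12 (25.5%, interval 13.9 to 40.3%), against 28.8%. Summits under 3-fold numbered 6 (12.8%), against 14.0%. The list's shares at 5-fold and at 6-fold lie inside the intervals of Kit, so no difference is read from them. The list's share at 10-fold lies just above the upper limit of Kit. That interval treats neighbouring regions of 1 library as independent, so no difference is read from it either. Of the 12 summits of 5-fold or more, 7 lay in the wide H3K4me1 region and 3 near the rounded gene start. The others lay at -92.6 and 63.0 kb. For H3K4me1, 9 of 43 regions reached 6-fold, against 20.7% of the list, and 0 reached 10-fold, against 1.12%.

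The window ranked high by marked length. Among 10717 windows of 230 kb laid side by side over the autosomes, the Kit window was 244th by H3K27ac length (28.6 kb against a median of 1.87 kb) and 127th by number of H3K27ac regions (47 against 4). By H3K4me1 length it was 358th (66.4 kb against 7.88 kb) and by number of H3K4me1 regions 597th (43 against 9). Windows without a mark were counted in these medians, 2957 for H3K27ac and 2303 for H3K4me1. When only regions with a −log10 q of at least 5 were kept in both lists, the rank by H3K27ac length fell to 516th and that by H3K4me1 length was 364th. Among the 269 other windows whose H3K4me1 length was within 10% of that of Kit, 204 had less H3K27ac, and their median was 23.1 kb.

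Windows with as much acetylation held a summit of higher fold in each of the 142 other cases. Their H3K27ac length was within 10% of that at Kit, and their highest summit had a median of 16.8-fold (quartiles 13.6 and 20.5, lowest 7.68), against 7.04-fold at Kit. In reads their median was 59 (quartiles 47.25 and 71) against 26 at Kit, and 1 of the 142 had as few. This comparison was chosen after the values of Kit had been seen, has no test and rests on 1 library. The part of local background and of the number of gene starts per window in it was not tested.

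**Figure D5:**
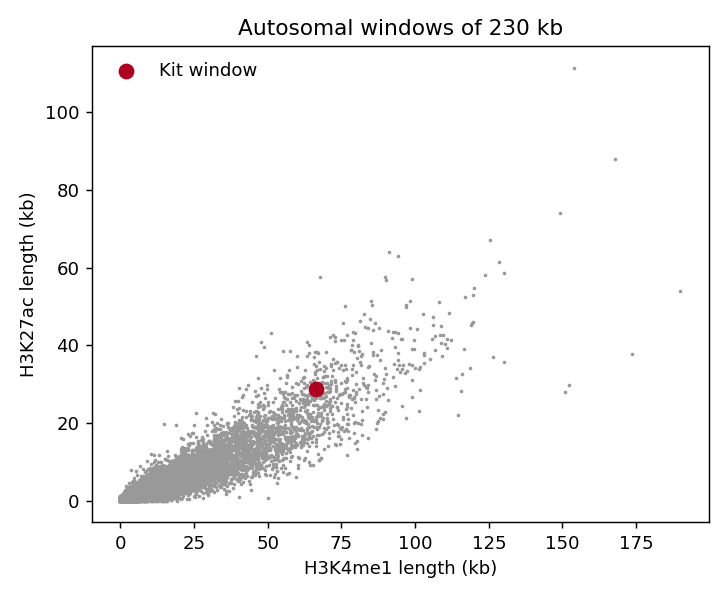
H3K27ac length against H3K4me1 length, both in kb, in 10717 autosomal windows of 230 kb (grey points) and in the Kit window (red). Kit lies within the cloud, at 66.4 kb of H3K4me1 and 28.6 kb of H3K27ac.

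Domains were made by joining H3K27ac regions at most 12500 bp apart, and 5 of them reached into the window. The domain nearest the rounded gene start ran from 75970590 to 76004164 and held 20 regions with 17.2 kb acetylated. Its 33.6 kb were covered by H3K4me1 to 85.5%. It ranked 308th of 30221 domains by acetylated length, just below the 302 that form the top 1%. The 100 other domains within 50 ranks of it had a median highest summit of 13.6-fold, and 1 of them was as low in fold as Kit. In reads their median was 46 against 26 at Kit, and 3 of them were as low. Like that of the windows, this comparison was chosen after the values of Kit had been seen. The second domain of the gene, from 76017700 to 76053584, held 15 regions with 7.15 kb acetylated and ranked 1459th. The far upstream cluster ranked 3849th and the lone region at -34.4 kb 27551st. The fifth domain began at 97.2 kb and lay mostly beyond the window.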

How the data were processed

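The data were 2 deposited peak lists, for H3K27ac and H3K4me1, each from 1 library of stem cells, with groups taken from the sample titles. The submitters' processing notes name Bowtie2 2.0.6, MACS2 2.0.10.20131216 and the build mm9. How the peak caller was set, which control it used and how duplicates were treated is not given in the sources used here. Fold, as deposited, is the ratio of summit to local background. Each peak also has deposited −log10 p and −log10 q values for its summit, where the list of H3K27ac begins at a −log10 q of 1.30 and that of H3K4me1 at 1.31. A deposited score repeats the −log10 q as a whole number and was not used.

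Positions count from 1. Reads at a summit were solved from fold = (reads + 1)/(background + 1) and the Poisson probability of more reads, which reproduced each −log10 p within 0.001. This was tested on simulated data made with the same formulas, where all 93413 and 155027 summits were recovered. It checks the calculation, not the peak caller. Regions were assigned to a part of the locus by their summit. The named regions were set by rule as the 10 H3K27ac regions of highest fold, the 10 widest and 5 strongest H3K4me1 regions, the strongest per part, the 5 strongest of each mark without the other, and those at the window's edges. Other regions were named after their values were seen. The locus, lists and measures were chosen with earlier results of these data known. Promoter sequences are RefSeq's (GRCm38.p6), where Kit matched 2 windows with starts a few bases apart and the first was used. No test was run. Scripts ran on Python 3.11.15 with scipy 1.17.1, pandas 2.3.3, numpy 2.4.6 and, for figures, matplotlib 3.10.9.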

Additional observations from a re-analysis of the deposited data

How the results depend on the processing

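Of 28 alternative values, 15 stayed within the interval of the reported value (shares) or a factor of 1.5 (counts, coverage and ranks), and 13 moved. The alternatives were drawn from the same regions or a part of them, so a value that stayed is not independent support. With a −log10 q of at least 5 in both lists there were 17 H3K27ac and 27 H3K4me1 regions at Kit, H3K27ac covered 6.80% of the window, 22.2% of the H3K4me1 regions met H3K27ac, and the rank by H3K27ac length was 516. At 10 there were 5 and 15 regions, H3K27ac covered 3.66%, and 6.67% of the H3K4me1 regions met H3K27ac, which was 1 of 15. Regions joined over gaps of up to 1 kb left 27 of H3K27ac. With regions of the other mark within 1 kb counted, 85.1% of H3K27ac and 55.8% of H3K4me1 regions met the other mark. Gaps of up to 5 kb gave 12 domains. Fewer regions are kept at a stricter q and more are met at a longer reach by construction. Without the regions of raised local background, a setting added after the data had been seen, the shares were 58.3% and 37.5%. The shares of the whole lists were not computed under any of these settings. Whether Kit differs from the lists there is therefore not known. No paired analysis was possible because there was 1 library per mark. Depth limits the absence of H3K27ac upstream of Kit, since a summit under 8 reads was never called, and 1 library a mark leaves every value without replicate error.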

Other observations

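Both marks covered more of the sequence beyond the downstream edge of the Kit window. The next 230 kb held 68 H3K27ac and 60 H3K4me1 regions that covered 21.9% and 42.2%. Their median folds were 4.14 for H3K27ac and 4.06 for H3K4me1, against 3.84 and 4.21 in the Kit window. The 230 kb before the window held 13 and 18 regions that covered 1.84% and 9.0%. The H3K27ac domain that begins at 97.2 kb ended at 193.7 kb and held 37 regions with 27.6 kb acetylated. This domain ranked 109th of 30221, above the one nearest the rounded Kit start. Its strongest summit was 14.8-fold (49 reads) at 156.2 kb, in a region 6008 bp wide from 76123342 to 76129349. In the gene table of GRCm38.p6, the next genes after Kit are the long non-coding RNA Gm32558 and then Kdr, which encodes a receptor of vascular endothelial growth factor. No region was assigned to either, since the builds differ.

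An H3K4me1 region with an unusually high fold lay 2.28 kb outside the window, from 76072284 to 76076483. Its summit at 105.8 kb was 12.8-fold (60 reads) over a background equal to the library's, which ranked 56th of 155027 by fold. It met 2 H3K27ac regions, of 4.73-fold (15 reads) and 7.39-fold (24 reads). The second of these exceeded in fold each of the 47 H3K27ac regions at Kit, although 24 reads are fewer than the 26 of the strongest one there. Both lie outside the interval that defined the locus. A window drawn a few kb longer would therefore have another region of highest fold for each mark.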
